A study of Mus musculus with 11 samples.

Results

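The canonical transcriptional targets of p53 were examined in 2 premalignant mammary lines that lack p53. The set holds 10 genes, namely Trp53 itself, Mdm2 and Ccng1 of the feedback loop, Cdkn1a, Gadd45a and Btg2 of growth arrest, and Bax, Fas, Perp and Ei24 of cell death. Every probe set annotated to a single gene among them was taken, which gave 10 of the 12488 probe sets on the array and 8 of the 10 genes. Trp53 and Bax had no such probe set in the annotation used and are not analysed here. Of the 10 probe sets, 9 were tested among 12422, and the remaining one, a probe set for Fas among the array controls, is described without a test.

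Gene expression was profiled in whole mammary glands that carried PN1a lesions (hyperplasia I, 5 samples, PN1a 1 to PN1a 5) or PN1b lesions (hyperplasia 2, 6 samples, PN1b 1 to PN1b 6), all at 8 weeks post-transplantation. Both lines began as p53-null (Trp53-/-, Balb/c) mammary epithelium grown in cleared fat pads of syngeneic wild-type Balb/c females, and each descends from 1 of a pair of contralateral outgrowths in the same mouse. The epithelium was therefore Trp53-/- in every sample, whereas the fat, stroma, vessels and immune cells were the host's and carried intact Trp53. No gland with Trp53 wild-type epithelium was analysed, so no value below compares a p53-null gland with a wild-type one. The sources used do not say whether each sample was a separate mouse, so the tests speak for the spread among these 11 samples alone.

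p53 is a transcription factor that binds DNA as a tetramer and switches on genes that halt the cell cycle, repair DNA or kill the cell after stress. Its response element is built from pairs of a short half-site, and 1 of its targets, Mdm2, marks p53 for degradation and so closes a feedback loop. Most of its targets also answer to other factors, among them the p53 relatives p63 and p73 and the growth factor and stress pathways that drive immediate early genes, so that they are also expressed in cells without p53.

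Matches to the p53 half-site near the start of these genes are shown as a sequence feature that most of the genes share. Several well-studied p53 elements, such as those of Mdm2 and Gadd45a, lie in introns outside these windows. Promoter windows of 300 bases (250 before to 50 after an annotated start, RefSeq, build GRCm38.p6) were given for 9 of the 10 genes, Perp being the exception. The pattern of letters allowed in a half-site is the same on both strands, although most single matches below are not. A half-site lay in 7 of the 9 windows, while 9.55% of 27025 genes had 1 in a window of that length. Each sequence below is written 5′ to 3′ on the gene's strand, with the half-site in capitals. Cdkn1a held 2 of them, which 0.392% of genes did.
Trp53 (chr11:69580269-69580308, plus strand, 75 bases before the start): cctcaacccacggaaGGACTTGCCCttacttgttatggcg
Cdkn1a (chr17:29090891-29090952, plus strand, 73 and 51 bases before the start): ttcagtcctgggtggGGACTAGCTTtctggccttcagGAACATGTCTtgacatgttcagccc
Mdm2 (chr10:117710920-117710959, minus strand, 186 bases before the start): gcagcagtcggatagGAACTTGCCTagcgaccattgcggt
Bax (chr7:45467075-45467114, minus strand, 201 bases before the start): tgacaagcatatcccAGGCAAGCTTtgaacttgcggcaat
Ccng1 (chr11:40755447-40755486, minus strand, 185 bases before the start): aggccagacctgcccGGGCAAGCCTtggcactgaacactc
Gadd45a (chr6:67037423-67037462, minus strand, 40 bases before the start): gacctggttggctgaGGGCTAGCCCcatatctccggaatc
Ei24 (chr9:36797320-36797359, minus strand, 10 bases before the start): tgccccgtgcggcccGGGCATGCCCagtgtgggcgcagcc

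Btg2 and Fas had no half-site in their windows. Btg2 instead held a cAMP response element (CRE, TGACGTCA, which also reads the same on both strands), the binding site of CREB and ATF factors that serves many immediate early genes, and 2.03% of genes held 1. In its sequence the capitals mark that element.
Btg2 (chr1:134079299-134079336, minus strand, 166 bases before the start): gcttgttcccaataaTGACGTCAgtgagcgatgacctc
A match describes the letters in the window only, and no binding was measured in these samples.

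**Figure D1:**
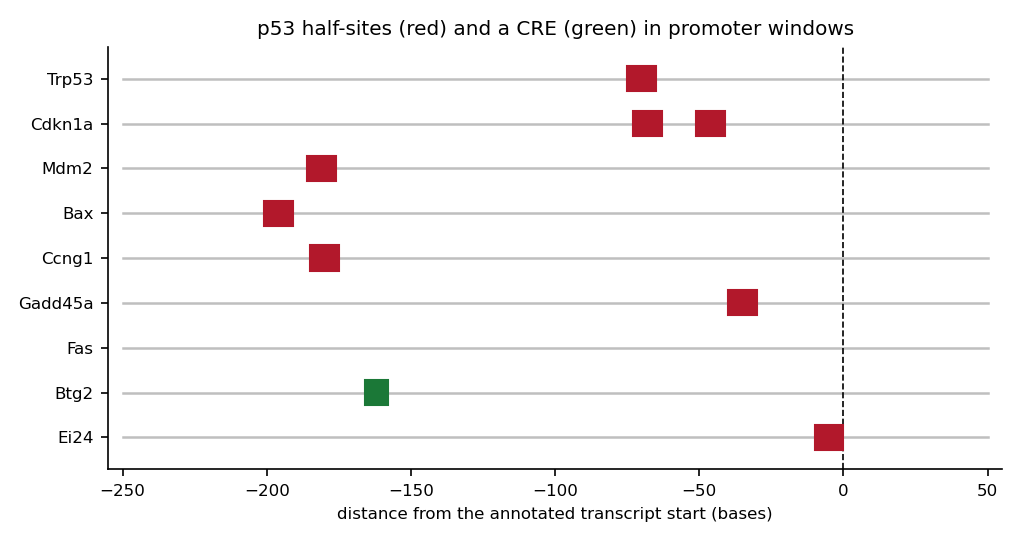
Position of each p53 half-site (red) and of the CRE of Btg2 (green) in the promoter windows of 9 genes, with the distance from the annotated transcript start in bases on the horizontal axis. Cdkn1a has 2 half-sites, 73 and 51 bases before the start, and the window of Fas has none.

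The values were linear hybridization intensities, normalized by the authors so that samples are comparable, in arbitrary units that allow no comparison of level between probe sets. The median intensity of a sample lay between 8.57 and 9.51, and 0.817% of all values stood at the lowest value of 1, none of them in a p53 target. Differences were tested on log2 intensity with limma, and a probe set was called when its adjusted p (Benjamini-Hochberg over 12422) was under 0.05 and its difference at least 1.5-fold. Among all probe sets 309 (2.49%) were called, 108 (0.869%) higher and 201 (1.62%) lower in PN1a. Samples PN1a 1 and PN1a 2, the PN1a samples whose titles are numbers, stood apart from the rest. The 18S ribosomal RNA control read 167 and 260 there, against 13.9 to 32.7 in PN1a 3 to 5 and 5.39 to 18 in PN1b. Both samples lay below the other 9 in 10.1% of probe sets and above them in 8.84%. The titles also share endings of a meaning not given, and 1 ending holds all 5 PN1a samples with PN1b 5 and PN1b 6 only. Values within that ending are given for some genes only, so the others cannot be taken as unchanged there. The other endings hold PN1b samples only. With the title ending as a fixed block, the difference therefore came from the 5 PN1a samples against PN1b 5 and PN1b 6 alone. Under that block 31 probe sets (0.25%) were called, so the end of a call there does not show that the lines were alike. Krt8, a luminal keratin that marks mammary epithelium, was present in every sample, at 52.7 to 443 in PN1a against 307 to 657 in PN1b.

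Perp was the only target gene that differed between the lines by the test, at 2.61-fold lower in PN1a. All 9 tested probe sets had a log2 fold change below 0, with a median of -0.81 against -0.01 over all probe sets, and 51.4% of all probe sets lay below 0. By the call, 1 of the 9 (11.1%, against 1.62% of all probe sets called lower) was lower and 0 were higher. An unadjusted p under 0.05 was found for 4 of the 9, against 18.9% of all probe sets. At the threshold of the study's methods (p under 0.01 and 1.5-fold, without adjustment) 2 of the 9, Perp and Ei24, were lower, against 3.56% of all probe sets, and neither passed after adjustment of that test. Most of the shared direction came with 2 samples, since PN1a 1 and PN1a 2 were the lowest of the 11 in 7 of the 9 probe sets and 6 of the 8 genes. Without them 5 probe sets lay below 0 and 4 above, with a median of -0.17, against -0.03 over all probe sets.

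**Figure D2:**
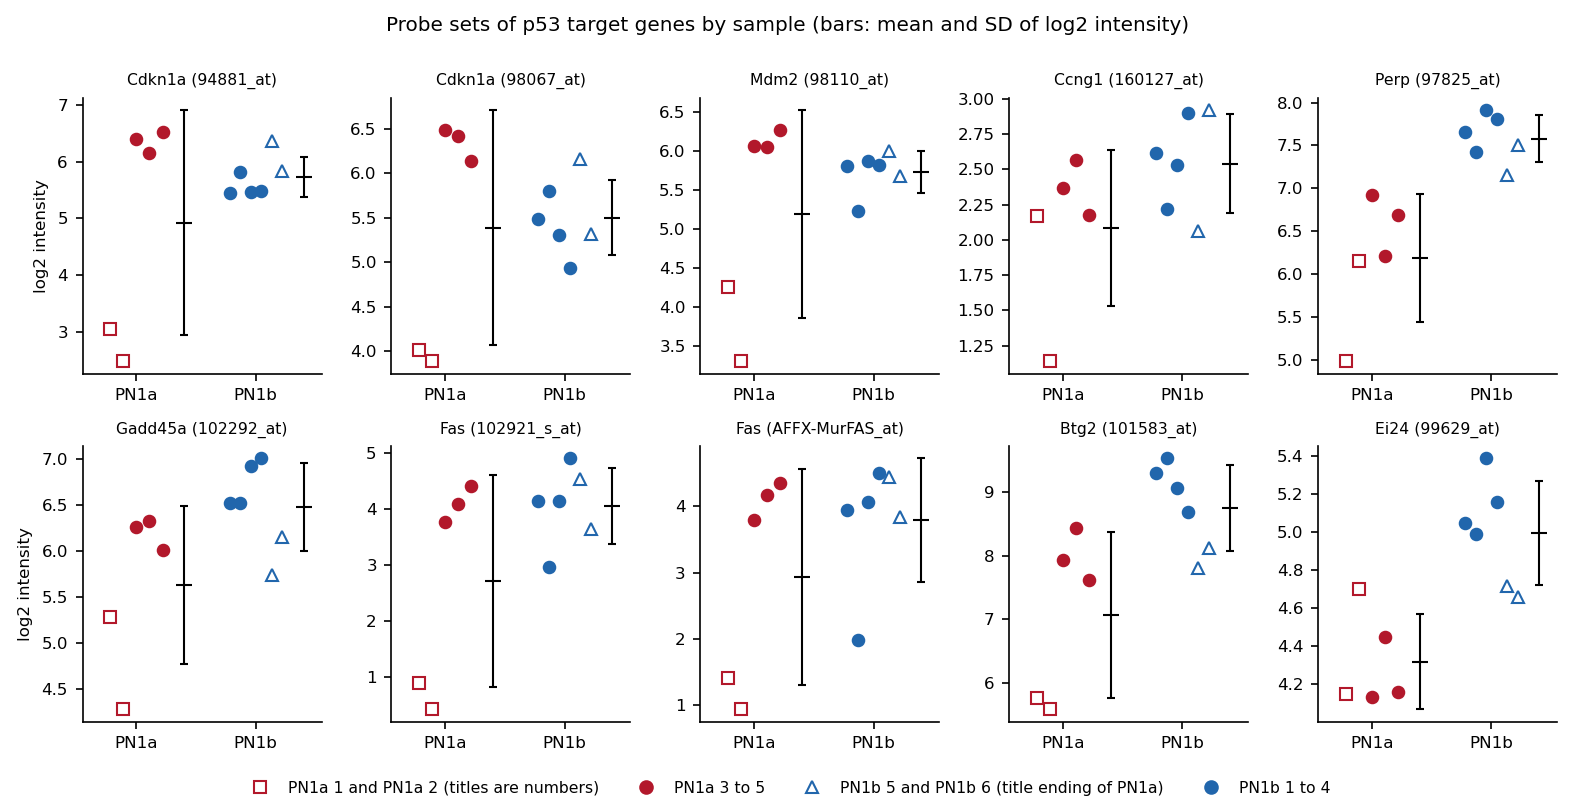
Log2 intensity of the 10 probe sets of p53 target genes in each sample, PN1a left of PN1b, with bars for the mean and SD (n = 5 and n = 6). Open squares (PN1a 1 and PN1a 2) lie at the bottom of most panels, and only in Perp do all PN1a samples lie below all PN1b samples.

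Mdm2, the ubiquitin ligase that degrades p53 and is induced by it, closes the feedback loop on p53. Its intensity (98110_at, chromosome 10) was 19.0, 9.85, 67.2, 66.7 and 77.2 in PN1a 1 to 5, against 56.1, 37.5, 58.9, 56.5, 64.0 and 51.3 in PN1b 1 to 6. The PN1a samples fell on both sides of PN1b, with PN1a 1 and PN1a 2 below every PN1b sample and the other 3 above every one. The log2 mean was 5.19 ± 1.34 in PN1a and 5.74 ± 0.27 in PN1b (SD, n = 5 and 6), a difference of -0.55 (SE 0.47, limma adjusted p = 0.582). Without PN1a 1 and PN1a 2 the difference turned to 0.40, with an adjusted p of 0.371.

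Ccng1 encodes cyclin G1, which brings a phosphatase to Mdm2. Its probe set (160127_at, chromosome 11) read 4.50, 2.20, 5.17, 5.94 and 4.53 in PN1a, against 6.15, 4.66, 5.78, 7.46, 4.17 and 7.57 in PN1b. The ranges overlapped, with PN1a 2 lowest. The probe set was dim, below the median intensity of the sample in all 11 samples. The log2 difference of -0.46 (SE 0.26) did not pass the limma test (adjusted p = 0.38).

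Trp53 could be looked at only indirectly. The array has 2 probe sets named Trp53-ps, a processed pseudogene whose sequence resembles the Trp53 transcript, so that signal of the gene and of the pseudogene cannot be told apart there. The first (101617_s_at) read 6.64, 6.96, 9.32, 5.32 and 7.41 in PN1a, against 3.48, 1.73, 4.08, 2.85, 5.86 and 6.59 in PN1b, with a log2 difference of 0.91 (SE 0.31, limma adjusted p = 0.133). The second (101618_r_at) read 7.01 to 11.2 in PN1a and 7.67 to 13.9 in PN1b, with a difference of -0.39 (adjusted p = 0.35). The 2 probe sets differed in sign, and neither passed the test.

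Among the growth arrest genes, Cdkn1a encodes p21, the inhibitor of cyclin-dependent kinases through which p53 stops the cycle. It had 2 probe sets on chromosome 17. The first (94881_at) read 8.28, 5.58, 84.5, 71.5 and 91.8 in PN1a, against 43.4, 56.1, 44.0, 44.6, 82.1 and 56.9 in PN1b. The second (98067_at) read 16.2, 14.8, 89.3, 85.6 and 70.5 in PN1a, against 44.9, 55.7, 39.7, 30.7, 71.5 and 39.9 in PN1b. In both, PN1a 1 and PN1a 2 were the lowest samples and each of PN1a 3 to 5 stood above at least 5 of the 6 PN1b samples, with PN1b 5 near them. The spread within PN1a exceeded the difference between the lines, with log2 means of 4.92 ± 1.98 in PN1a and 5.73 ± 0.36 in PN1b for the first probe set, and 5.39 ± 1.32 in PN1a and 5.50 ± 0.43 in PN1b for the second (SD, n = 5 and 6). The differences were -0.81 (SE 0.68, limma adjusted p = 0.57) and -0.11 (SE 0.48, adjusted p = 0.928). Their sign turned without PN1a 1 and PN1a 2, to 0.63 (adjusted p = 0.222) and 0.84 (adjusted p = 0.148). Within the shared title ending the differences were -1.17 and -0.35.

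Gadd45a encodes a stress protein that binds PCNA and p21 and acts on the MAP3K4 kinase. Its probe set (102292_at, chromosome 6) read 39.1, 19.4, 76.6, 80.4 and 64.4 in PN1a, against 92.4, 92.4, 122, 129, 53.4 and 71.5 in PN1b. PN1b 6 lay among PN1a 3 to 5, PN1b 5 just below them, and the other 4 PN1b samples lay above all of PN1a. The log2 means of 5.63 ± 0.86 in PN1a and 6.48 ± 0.48 in PN1b differed by -0.85 (SE 0.36, limma adjusted p = 0.226). The difference was -0.32 within the shared title ending, -0.28 without PN1a 1 and PN1a 2 (adjusted p = 0.674) and -0.51 without PN1a 2 alone.

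Btg2, an antiproliferative gene that is also an immediate early gene, had the largest difference of the set but not a call. Its intensity (101583_at, chromosome 1) was 54.2, 47.8, 244, 347 and 197 in PN1a, against 630, 739, 534, 410, 224 and 278 in PN1b. PN1a 1 and PN1a 2 were far below the rest, PN1a 3 to 5 overlapped PN1b 5 and PN1b 6, and PN1b 1 to 4 were above all others. The log2 means were 7.07 ± 1.31 in PN1a and 8.75 ± 0.68 in PN1b, with a difference of -1.68 (SE 0.52, limma adjusted p = 0.100). It was -0.90 within the shared title ending, -0.75 without PN1a 1 and PN1a 2, and 0.03 with both restrictions together (3 PN1a and 2 PN1b samples).

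Of the cell death genes, Perp encodes a tetraspan membrane protein of desmosomes that was found as an apoptosis effector of p53 and is also a target of p63 in stratified epithelium. Its intensity (97825_at, chromosome 10) was 31.8, 71.5, 121, 74 and 103 in PN1a, against 202, 172, 240, 224, 143 and 182 in PN1b. Every PN1a sample lay below every PN1b sample, an arrangement seen in 2.38% of all probe sets. The log2 means of 6.19 ± 0.75 in PN1a and 7.58 ± 0.27 in PN1b differed by -1.39 (SE 0.30, limma adjusted p = 0.031). The call ended when any 1 of PN1a 2, PN1a 4 or PN1b 1 to 4 was left out (adjusted p 0.0546 to 0.0794). It also ended without PN1a 1 and PN1a 2 together (-0.97, adjusted p = 0.0693) and with the title ending as a block (-1.14, adjusted p = 0.458), while the direction held in each.

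Because whole glands were lysed, fewer cells of a type and less RNA per cell cannot be told apart. The summed intensity of 11 epithelial markers was 286 and 732 in PN1a 1 and PN1a 2, 1550 to 2060 in PN1a 3 to 5, and 1300 to 2210 in PN1b. The markers in that sum went opposite ways in PN1a 3 to 5, where Krt19 read 326 to 440 against 9.99 to 54.2 in PN1b, while Krt18 read 452 to 653 against 639 to 936 in PN1b and Krt8 298 to 443 against 307 to 657 in PN1b. Over all samples 8 of the 11 epithelial markers lay below 0, with a median of -0.39, and none was called. The adipocyte sum (6 of 8 genes measured) was 34.8 to 163 in PN1a against 190 to 246 in PN1b, without overlap, but only 2 of the 6 genes lay below 0 and their median log2 difference was 0.18. The sum followed Lpl, the lipoprotein lipase gene, which read 20.4 to 118 in PN1a against 170 to 229 in PN1b (-1.81, limma adjusted p = 0.0415). That call ended when any 1 of PN1a 1 to 3, PN1b 1 to 4 and PN1b 6 was left out (adjusted p 0.0547 to 0.0971). It also ended with the title ending as a block (adjusted p = 0.453), and a second probe set of Lpl gave -0.66 (limma adjusted p = 0.439). That second probe set was dimmer, at 1.57 to 12.8 over all samples. Adipoq, the defining adipocyte hormone, measured 2.87 to 13.4 in PN1a against 4.69 to 10.8 in PN1b. The macrophage sum (12 of 13 genes) was 829 to 1420 in PN1a against 311 to 906 in PN1b. All 12 genes lay above 0, against 47.0% of all genes, with a median of 1.22. C1qb, Cd68 and Tyrobp were called higher (25.0%, against 2.68% of all genes called in either direction). Their limma adjusted p was 0.0456, 0.0448 and 0.0317, and 0.467, 0.414 and 0.515 with the title ending as a block. Each call also ended when any of several single samples was left out. Second probe sets gave 0.10 for C1qb and 0.04 for Cd68. They were dim, at 3.2 to 9.19 and 1.0 to 3.48 over all samples, and so say little about a difference. The part of cell makeup in the Perp difference was not tested further.

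Ei24, a membrane protein of the endoplasmic reticulum first found as a p53-induced gene, came next to Perp in the strength of the test. Its intensity (99629_at, chromosome 9) was 17.8, 26.0, 17.5, 21.9 and 17.9 in PN1a, against 33.1, 31.8, 41.9, 35.8, 26.4 and 25.3 in PN1b. Only PN1a 2 reached into the range of PN1b, and PN1a 1 and PN1a 2 were not the lowest samples. The log2 means of 4.32 ± 0.25 in PN1a and 5.00 ± 0.27 in PN1b differed by -0.68 (SE 0.19, limma adjusted p = 0.0769). The difference was -0.75 without PN1a 1 and PN1a 2 (adjusted p = 0.116) and -0.37 within the shared title ending (adjusted p = 0.748). When dim probe sets were dropped before testing, the limma adjusted p of Ei24 was 0.0372. It was 0.617 with the title ending as a fixed block, and 0.107 with quantile normalization repeated or with median centring.

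Fas encodes the death receptor for Fas ligand and was read by 2 probe sets. The tested one (102921_s_at, chromosome 19) read 1.87, 1.35, 13.5, 16.9 and 21.3 in PN1a, against 17.6, 7.78, 17.6, 29.9, 23.1 and 12.5 in PN1b. The control probe set (AFFX-MurFAS_at) read 2.66, 1.92, 13.9, 18 and 20.4 in PN1a, against 15.3, 3.94, 16.7, 22.6, 21.9 and 14.3 in PN1b. Both showed PN1a 1 and PN1a 2 below all other samples, and PN1a 3 to 5 within the range of PN1b. The log2 means of the tested probe set were 2.72 ± 1.89 in PN1a and 4.05 ± 0.68 in PN1b, with a difference of -1.34 (SE 0.69, limma adjusted p = 0.317) that became 0.03 without PN1a 1 and PN1a 2. Fasl, the gene of its ligand, had a log2 difference of 0.09 (limma adjusted p = 0.906).

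**Figure D3:**
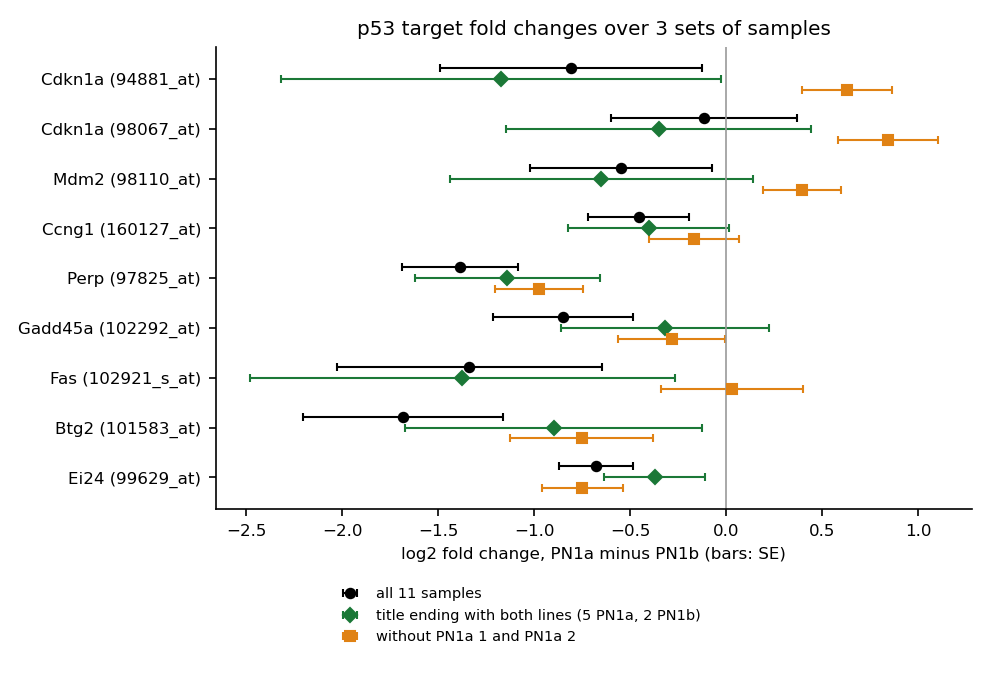
Log2 fold change of the 9 tested probe sets, PN1a minus PN1b, with bars for 1 SE, over all 11 samples (black), within the title ending that holds both lines (green, 5 PN1a and 2 PN1b samples) and without PN1a 1 and PN1a 2 (orange). Perp, Ei24, Btg2, Gadd45a and Ccng1 stay below 0 in all 3, at -1.39, -1.14 and -0.97 for Perp, while both Cdkn1a probe sets, Mdm2 and, at 0.03, Fas lie above 0 in the last.

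The samples in which the targets were low were also those in which immediate early genes were low. These genes, such as Fos, Egr1 and Atf3, are transcribed within minutes of growth factor signals, stress or tissue handling. Of 20 measured, 19 were lower in PN1a 1 and PN1a 2 than in the other 9 samples, against 979 of all 8251 genes. Their summed intensity was 1156 and 1339 in PN1a 1 and PN1a 2, 5780 to 6500 in PN1a 3 to 5, and 5540 to 8640 in PN1b. Fos read 16.2 and 14.6 in PN1a 1 and PN1a 2 and up to 333 in the other PN1a samples, against 246 to 626 in PN1b. All 20 had a log2 difference below 0, as did 4374 of all 8251 genes. The median of the 20 was -1.36, or -0.38 without PN1a 1 and PN1a 2, where all genes had -0.04. An unadjusted limma p under 0.05 was found for 14 (70.0%), against 20.4% of all genes. Nr4a1, an orphan nuclear receptor, alone was called (5.0% of the list, against 2.68% of all genes). It read 8.22 to 73.0 in PN1a against 76.6 to 302 in PN1b, with a log2 difference of -2.95 (SE 0.60, limma adjusted p = 0.0242). That call ended without PN1a 1 or without any 1 of PN1b 1 to 4 (adjusted p 0.0507 to 0.0647), and with the title ending as a block (adjusted p = 0.467).

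The endothelial sum was low in the same samples, at 113 and 54.6 in PN1a 1 and PN1a 2, 243 to 297 in PN1a 3 to 5 and 178 to 354 in PN1b. The Gapdh 3′ to 5′ ratio, a measure of RNA integrity on these arrays, was 0.829 and 0.883 in PN1a 1 and PN1a 2, 1.73 to 4.17 in PN1a 3 to 5 and 1.25 to 5.21 in PN1b. The same ratio for beta-actin, at 1.366 and 1.495 in PN1a 1 and PN1a 2 and 1.68 to 3.84 in PN1a 3 to 5, did not set those 2 samples apart from PN1b (1.32 to 4.82). Both ratios were highest in PN1b 6 (5.21 for Gapdh and 4.82 for beta-actin) and next in PN1a 5 (4.17 and 3.84). The part of tissue handling, RNA quality and cell makeup in the low values of Cdkn1a, Mdm2, Fas, Gadd45a and Btg2 was not tested.

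**Figure D4:**
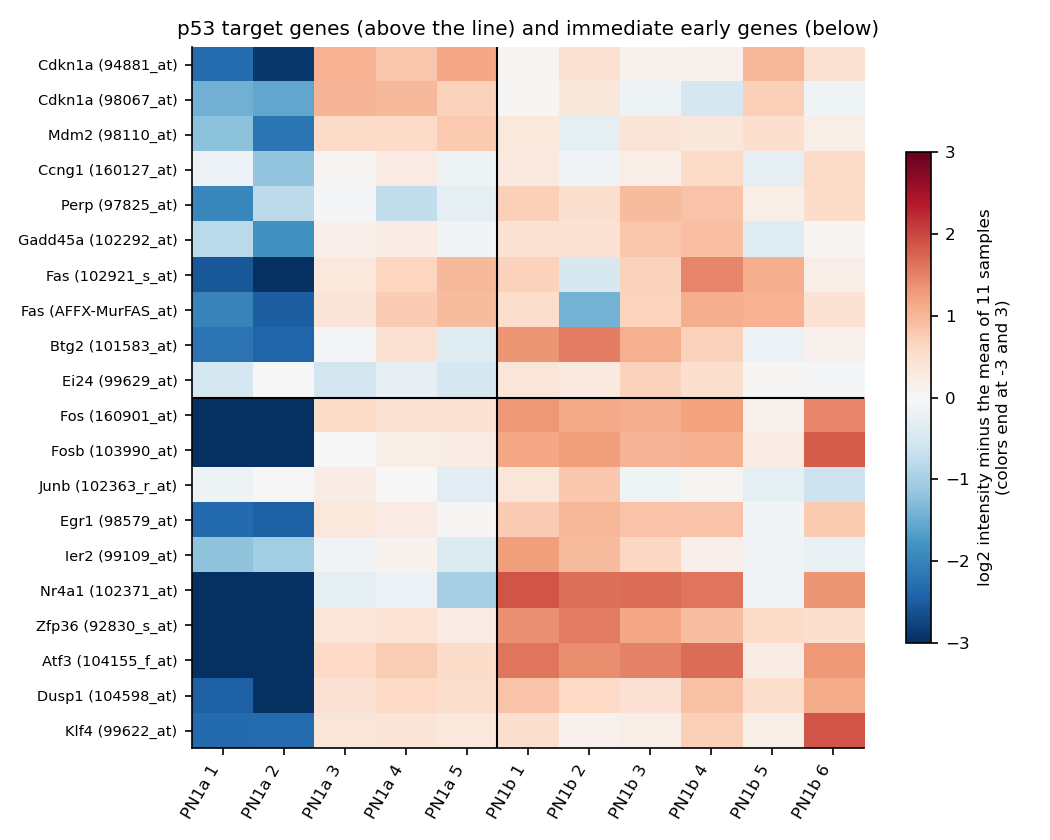
Log2 intensity minus the mean of 11 samples for the p53 target probe sets (above the line) and for 10 immediate early genes (below), 1 column per sample, with PN1a left of PN1b and blue for low. The columns of PN1a 1 and PN1a 2 are blue in most rows of both blocks, and Ei24 and Junb are among the exceptions.

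A wider list of p53 target genes held changes in both directions. Of 63 genes on it 43 were measured, and 1 was called higher and 2 lower in PN1a, where 0.836% of all genes were called higher and 1.84% lower. The list's median log2 difference was -0.02 against -0.03 over 8251 genes, with 22 of the 43 below 0, and 12 (27.9%) had an unadjusted p under 0.05 against 20.4% of all genes. Igfbp3, a secreted binding protein of insulin-like growth factors, was higher at 128 to 300 in PN1a (median 151), against 25.8 to 46.5 in PN1b (median 33.1). Its log2 difference was 2.29 (SE 0.26, limma adjusted p = 3.67e-04), all 5 PN1a samples lay above all 6 PN1b samples (1.58% of all probe sets), and the call held without any single sample. A second probe set of Igfbp3 gave 2.61 (adjusted p = 0.0103), and with the title ending as a block the first gave 1.89 (adjusted p = 0.0559). The 2 lower genes were Casp1, the inflammasome protease, at 11.4 to 15.6 in PN1a against 18.8 to 45.9 in PN1b, and Tob1, an antiproliferative relative of Btg2, at 9.51 to 36.0 in PN1a against 36.8 to 82.7 in PN1b. Casp1 differed by -1.19 (SE 0.23, limma adjusted p = 0.0156) and Tob1 by -1.63 (SE 0.34, adjusted p = 0.0259). The call of Tob1 ended when PN1a 1 or any 1 of PN1b 1, PN1b 3 and PN1b 4 was left out (adjusted p 0.0609 to 0.0677). A second probe set of Tob1 gave -0.01, but it read only 1.3 to 2.99 over all samples and so says little about a difference. Both calls ended with the title ending as a block (adjusted p = 0.391 for Casp1 and 0.435 for Tob1) and without PN1a 1 and PN1a 2 (0.0608 and 0.0811). Sesn1, a stress-induced regulator of mTORC1, lay at 7.84 to 12.6 in PN1a against 13.8 to 26.5 in PN1b and missed the threshold (-0.90, limma adjusted p = 0.0561), as did Ercc5 (-0.64, adjusted p = 0.127).

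Regulators and relatives of p53 included 1 gene called higher and 1 called lower among 21 measured of 31. That was 9.52%, against 2.68% of all genes called in either direction. The list's median was -0.17 against -0.03 over all genes, and 23.8% had an unadjusted limma p under 0.05 against 20.4% of all genes. Trp63, the p53 relative that maintains basal epithelium, was lower at 6.28 to 26.7 in PN1a, against 28.6 to 58.5 in PN1b, by -1.55 (SE 0.33, limma adjusted p = 0.0262). The difference was -1.48 without PN1a 1 and PN1a 2 (adjusted p = 0.0157), and the call ended when PN1a 4 or any 1 of PN1b 1, PN1b 3 and PN1b 4 was left out (adjusted p 0.0597 to 0.0687) and with the title ending as a block (adjusted p = 0.453). Ing1, a chromatin reader that cooperates with p53, was higher at 81.0 to 163 in PN1a, against 43.7 to 67.2 in PN1b (1.22, SE 0.21, limma adjusted p = 0.00967), with an adjusted p of 0.265 under the block and 0.054 without PN1a 1 and PN1a 2. Mdm4, the partner of Mdm2 in restraining p53, read 25.1 to 39.9 in PN1a against 40.2 to 64.0 in PN1b without overlap, but its difference of -0.60 did not pass (adjusted p = 0.114). Hipk2, a kinase of p53, had 0.82 (adjusted p = 0.0652), and Cdkn2a, the locus of Arf that shields p53 from Mdm2, had -0.49 (adjusted p = 0.521). Within the shared title ending Hipk2 had 0.50 and Mdm4 -0.32, while the sign of Cdkn2a turned, to 0.40.

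Genes that act together with the targets, such as cyclins and their kinases, BCL2 family members, Fas signalling proteins and desmosome components, gave 1 call among 40 measured of 45 (2.5%, against 2.68% of all genes called in either direction), with a median of 0.14. Bak1, which like Bax opens the outer mitochondrial membrane, was higher at 14.1 to 20.5 in PN1a, against 4.44 to 10.7 in PN1b, by 1.22 (SE 0.23, limma adjusted p = 0.0163). Its adjusted p was 0.431 with the title ending as a block and 0.0675 without PN1a 1 and PN1a 2, and with 16 added to each value the difference shrank to 0.50, under 1.5-fold. Gadd45b, a relative of Gadd45a, read 11.7 to 199 in PN1a and 224 to 560 in PN1b (-2.47, limma adjusted p = 0.0837). Among the desmosome genes that surround Perp, Ppl had -0.63 (adjusted p = 0.102), Dsg2 -1.07 (adjusted p = 0.134), Dsp 0.04 (adjusted p = 0.973) and Jup 0.16 (adjusted p = 0.856), so none passed. Cdk2, the kinase that p21 inhibits, had -0.60 (adjusted p = 0.111).

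Cell cycle genes that p53 represses through p21 had 0 calls by limma among 27 measured of 30, with 3 (11.1%) at an unadjusted p under 0.05 against 20.4% of all genes. Of the 27, 23 lay above 0 (85.2%, against 47.0% of all genes). Their median was 0.31 and turned to -0.15 without PN1a 1 and PN1a 2. Mki67, a marker of cycling cells, read 30.3 to 88.6 in PN1a against 24.6 to 40.2 in PN1b (0.60, limma adjusted p = 0.276). Birc5, an apoptosis inhibitor that acts in mitosis, read 11.6 to 54.9 in PN1a against 9.06 to 16.3 in PN1b (1.01, adjusted p = 0.174).

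**Figure D5:**
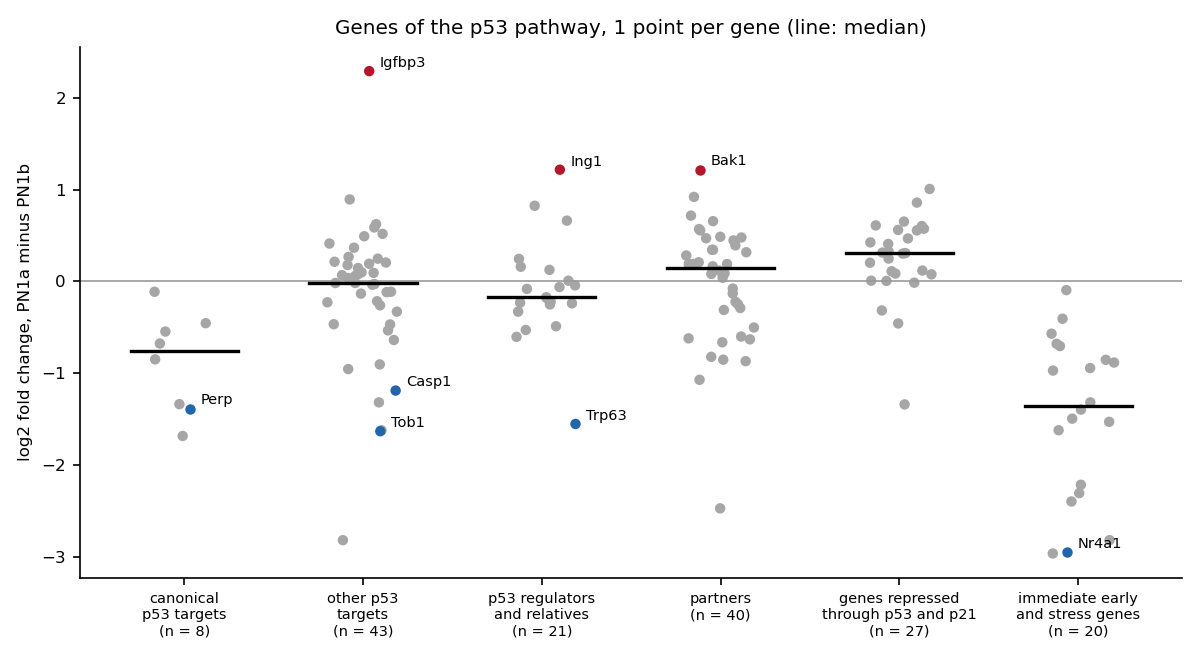
Log2 fold change, PN1a minus PN1b, of each measured gene in 6 lists of the p53 pathway and the immediate early response, 1 point per gene, with a line at the median of each list. Genes called higher in PN1a are red and those called lower are blue, and the list medians run from -1.36 for immediate early genes to 0.31 for genes repressed through p53 and p21.

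The genes whose pattern over the 11 samples was most like that of 3 targets were found among 5624 probe sets above the median level, by Pearson's r of log2 intensity, as a description with no p. For Cdkn1a (98067_at) they were Csf3 (r = 0.984), Dusp2 (0.978) and Ccl5 (0.977), and for Mdm2 they were Akap12 (0.981), Noct (0.975) and Rhob (0.973). All 6 read lower in PN1a 1 and PN1a 2 than in the other 9 samples. Without those 2 samples r stayed at 0.945 to 0.985 for the genes like Cdkn1a and was 0.783 to 0.785 for those like Mdm2. For Perp the nearest genes were Irak1 (0.975), Gstk1 (0.965) and Art3 (0.958), with r from 0.922 to 0.978 over the 9 samples. All of them also read lower in PN1a 1 and PN1a 2 than in the other 9 samples. Of these, Gstk1 had a log2 difference of -2.16 (limma adjusted p = 0.00631) and Art3 of -2.29 (adjusted p = 3.93e-04), while Irak1 did not pass (-0.80, adjusted p = 0.0835).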

How the data were processed

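RNA of 5 PN1a and 6 PN1b samples was hybridized to Affymetrix MG_U74Av2 arrays, 1 per sample. Whether a sample held 1 gland or several is not given. The authors summarized the scans in dChip (version not given in the sources used here), modelling PM minus MM signal, and quantile-normalized the arrays. The deposited intensity values are linear, 1 for each probe set in a sample. Scanner files were not used here, so background correction and summary could not be varied, and precision is limited by the number of arrays. The p53-/- glands of the study are not analysed here.

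Log2 intensities were taken without a pseudocount. The 66 array controls were left out, and limma 3.58.1 (R 4.3.3, lmFit and eBayes, two-sided, no covariate) compared PN1a with PN1b over 12422 probe sets with Benjamini-Hochberg adjustment. Probe sets were named from the platform annotation (10833 with 1 symbol, 396 with several, 1193 with none), and genes with several probe sets were counted once in a list, through their brightest probe set on average. Figures were drawn with matplotlib 3.10.9.

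The target genes, the lists and the interest in PN1a 1 and PN1a 2 were chosen with earlier results of these data known, so counts within a list are descriptions. Klf4, Atf3 and Dusp1 stand on 2 lists, and so does Chek1. Named were all probe sets of the targets, each called gene of a list and up to 4 more with the smallest adjusted p, the 3 nearest genes by Pearson's r for Cdkn1a, Mdm2 and each target called, and summed cell type markers. Genes such as Mdm4, Cdkn2a, Fasl, Dsp, Jup and Fos were added by role after their values were seen.

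Alternatives were the methods' t-test (p under 0.01 and 1.5-fold, and after Benjamini-Hochberg), the title ending as a fixed or random block, only the ending that holds both lines, repeated quantile normalization, median centring, 16 added to each value, a filter on dim probe sets, eBayes with trend and robust, other fold thresholds, the mean over a gene's probe sets, PN1a 1 and PN1a 2 left out, and each sample left out. The limma step was tested on simulated data.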

Additional observations from a re-analysis of the deposited data

Results flagged for a closer look

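In 2 of 20 groups of a target probe set, 1 sample lay far from the others of its line by Dixon's test on log2 intensity, where chance gives about 1 in 20. Ccng1 read 2.20 in PN1a 2, against 4.50 to 5.94 in the other 4 PN1a samples, a gap of 0.72 of the group's range on the log2 scale. Its probe set lay below the sample's median intensity in all 11 samples, where small shifts in intensity make large log2 gaps. The control probe set of Fas (AFFX-MurFAS_at) read 3.94 in PN1b 2, against 14.3 to 22.6 in the other 5 PN1b samples, a gap of 0.738 of the range on the log2 scale, and the tested Fas probe set was also lowest within PN1b in that sample, at 7.78.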

How the results depend on the processing

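No paired analysis was possible because the titles give the 2 lines no shared replicate numbers, and the 1 letter they share (PN1a 4 and PN1b 5) makes a single pair. Over all probe sets 108 were higher and 201 lower in PN1a. These counts were 50 and 95 with the methods' t-test after adjustment (271 and 442 at its own threshold, p under 0.01), 12 and 19 with the title ending as a fixed block, 58 and 104 as a random block, and 6 and 12 within the ending that holds both lines. With 16 added 65 were higher, with dim probe sets dropped 303 were lower, without PN1a 1 and PN1a 2 82 were lower, and leaving out each sample gave 44 to 182 higher and 79 to 377 lower.

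The 1 target called (Perp) became 0 with the adjusted methods' t-test, either block, within the ending or without PN1a 1 and PN1a 2, 2 (with Ei24) at p under 0.01 or with dim probe sets dropped, and 0 to 1 over single samples left out. List counts of called genes were 3 for other targets, 2 for regulators, 1 for partners, 1 for immediate early genes and 0 for repressed genes. With the fixed block or within the ending all were 0. Without PN1a 1 and PN1a 2 they were 1, 1, 0, 0 and 0. Regulators had 1 with the random block, 1 with the adjusted t-test and 4 at p under 0.01, partners 3 at that threshold and 0 with 16 added, and immediate early genes 0 with the adjusted t-test. Leaving out single samples gave 2 to 5, 1 to 3, 1 to 2, 0 to 2 and 0 to 0.

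Without PN1a 1 and PN1a 2 the log2 difference reversed for Cdkn1a (0.63 for 94881_at, 0.84 for 98067_at), Mdm2 (0.40) and Fas (0.03). In 2 settings chosen after seeing the data, without PN1a 1 and PN1a 2 and with the title ending as a block or within the shared ending, all probe sets gave 32 and 20, or 11 and 11, called, targets and lists gave 0, and the difference was 0.27 and 0.61 for Cdkn1a, 0.29 for Mdm2, 0.25 for Gadd45a and 0.032 for Btg2. Keeping the array controls, also added later, changed no call. With 16 added Cdkn1a (98067_at) gave 0.0061, and over single samples left out it ran from -0.39 to 0.26. For Perp the range was -1.57 to -1.09 and for Ei24 -0.77 to -0.60. The cause of these changes was not tested.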
